A study of Mus musculus with 8 samples.

Results

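The cell cycle genes described here were the 3 D-type cyclins (*Ccnd1*, *Ccnd2*, *Ccnd3*), the 2 E-type cyclins (*Ccne1*, *Ccne2*), the 3 CDK inhibitors of the Cip/Kip family (*Cdkn1a*, *Cdkn1b*, *Cdkn1c*) and the Myc family genes *Myc* and *Mycn*, 10 of the 20187 genes with a value in every library. They were chosen by name, with earlier results of these data known. In each library the gene's value was that of the locus overlapping it best on the mm9 mouse genome. RNA-Seq covered 8 libraries of NIH3T3 cells, an immortalised Hedgehog-responsive line of mouse embryonic fibroblasts, in 4 conditions of 2 libraries each. Control and Hh-CM cells carried the empty pcDNA3.1 vector, and Esrrb and Esrrb+Hh-CM cells were transfected with the vector for estrogen related receptor β, an orphan nuclear receptor. Hh-CM and Esrrb+Hh-CM cells received medium conditioned by HEK293 cells that secrete the N-terminal part of Sonic Hedgehog, and Control and Esrrb cells received vehicle, which was medium of the parental HEK293 cells. Both were diluted 100-fold and given for 48 h once the cultures were confluent, and the cells of either vector had before been selected with Zeocine, the agent the vector gives resistance to. The libraries of a condition are described as biological replicates. The cells of each vector came from independent transfections whose established cells were pooled. Whether the libraries of a condition came from separate pools is not stated. The p-values rest on the spread between libraries within the 4 conditions, which may not hold the spread between transfections.

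D-type cyclins bind CDK4 and CDK6 early in G1 and are made in answer to mitogens, whereas E-type cyclins bind CDK2 at the entry to S phase and their genes are activated by E2F factors once the retinoblastoma protein is phosphorylated. The Cip/Kip inhibitors p21 (*Cdkn1a*), p27 (*Cdkn1b*) and p57 (*Cdkn1c*) bind and restrain these kinases, and Myc proteins are transcription factors that raise growth and cell cycle genes. Hedgehog ligand is a known mitogen for several embryonic cell types and raises D-type cyclins and *Mycn* in cerebellar granule cell precursors. In bulk RNA, more cells in a phase of the cycle and more RNA per cell cannot be told apart.

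The direct Hedgehog targets *Gli1* and *Ptch1* followed the medium in both lines. *Gli1* averaged 0.0262 FPKM in Control and 0.0716 in Esrrb cells, against 27.4 with Hh-CM alone and 34.6 in the combined condition. The *Esrrb* locus, in contrast, was listed at 0 in both libraries labelled Esrrb, in both labelled Esrrb+Hh-CM and in both Control libraries, and at 0.0281 and 0.0203 FPKM in the Hh-CM libraries. The vector is therefore not seen at this locus, and Esrrb below names libraries by their label. The study reports Esrrb protein in the transfected cells by Western blot. Why its RNA is not seen at the locus was not tested. Fibroblast markers were high in every library, at a sum of 4935 to 5768 FPKM over 7 genes, and *Epcam*, *Krt18* and *Krt5* were at 0 in all. Endothelial markers summed to at most 0.143 FPKM without and at least 1.19 FPKM with Hh-CM, mostly *Tek*, with *Kdr* at 0 throughout, and leukocyte markers to 1.98 to 2.63 without and 2.57 to 3.67 with Hh-CM, with *Cd3e* at 0. Their part in the results was not tested. Relative depth lay between 0.743 in Esrrb+Hh-CM replicate 2 and 1.54 in Hh-CM replicate 2. The table of Esrrb replicate 1 stood apart: 8080 of its loci had the number and position of a locus in Hh-CM replicate 2, 52.2% of the smaller set of numbered loci against at most 0.795% in any other pair of tables. The same held for the loci of 4 of the 10 genes, although no shared locus above 0 had the same FPKM in both tables. Each change of a cyclin, inhibitor or Myc gene that passed a test between conditions holding either library is given below with and without it.

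The tests were limma's, fitted to log2(FPKM + 0.1) of all 10277 genes that had at least 1 FPKM in at least 2 libraries and adjusted by Benjamini-Hochberg within a comparison. FPKM divides fragments by transcript length and by the depth of the library, so levels of different genes can be compared per length. A gene passed the test when its adjusted p was below 0.05, and the second threshold was a 1-unit change on the log2 scale in either direction. Of the 10 genes, 9 were tested. *Cdkn1c* was below the limit in all libraries, and *Mycn* reached it only in libraries labelled Esrrb or Esrrb+Hh-CM. *Mycn* was thus tested only through the conditions where it was high, and its part in the counts below is bound to that choice.

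By mean FPKM over the 8 libraries the order was *Ccnd3* (103), *Cdkn1b* (56.8), *Cdkn1a* (46.2), *Ccnd2* (43.2), *Myc* (27.7), *Ccnd1* (23.5), *Ccne1* (8.61), *Ccne2* (4.42), *Mycn* (0.724) and *Cdkn1c* (0.0478). The D-type cyclins and both expressed inhibitors were above the E-type cyclins in every condition, by the least in Esrrb+Hh-CM cells, where *Ccnd1* averaged 20.5 FPKM and *Ccne1* 13.7. Neighbours in this order overlapped over the 8 libraries except *Ccnd3* and *Cdkn1b*, *Ccnd1* and *Ccne1*, *Ccne2* and *Mycn*, and *Mycn* and *Cdkn1c*. Within each library, however, *Ccnd2* was above *Myc* and *Ccne1* above *Ccne2*. Among the 9 tested genes, the 3 lowest varied most between conditions. *Mycn*, the lowest, met the limit only through the conditions where it was high, which favours a wide range. The group means spanned 2.37 on the log2 scale for *Mycn*, 1.38 for *Ccne2* and 1.23 for *Ccne1*, against 0.28 for *Ccnd2*.

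**Figure D1:**
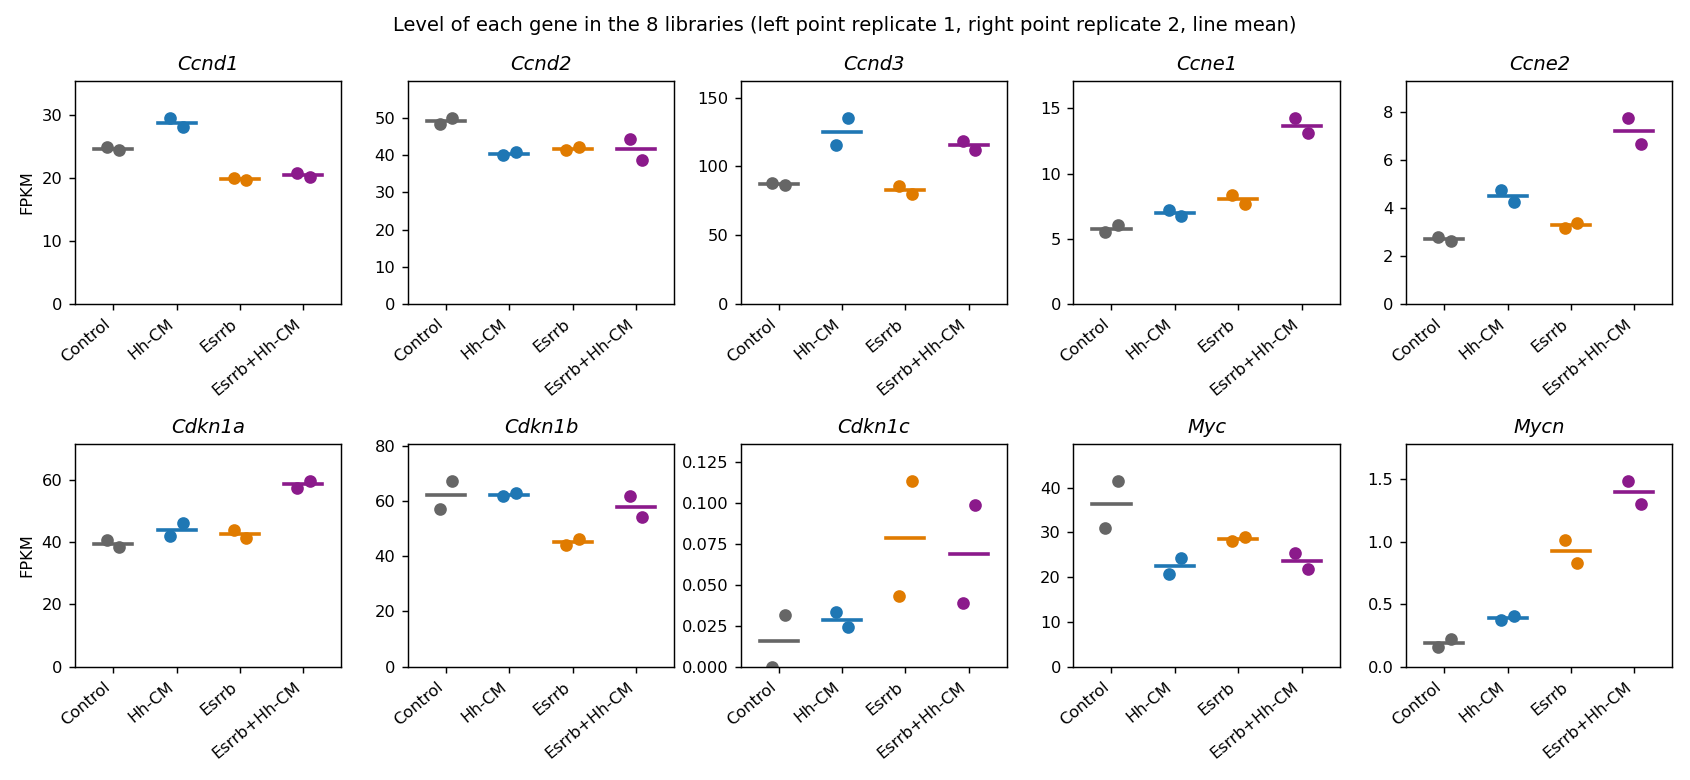
FPKM of the 10 genes (y axis, linear from 0, 1 panel a gene) in the 4 conditions (x axis), with 1 point a library and a line at the mean of 2 libraries. *Ccne1*, *Ccne2*, *Cdkn1a* and *Mycn* are highest in both Esrrb+Hh-CM libraries, *Ccnd3* is higher in the libraries with Hh-CM, and *Myc* is highest in the Control libraries.

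The combined condition showed the widest change among these genes. From Control to Esrrb+Hh-CM cells, 8 of the 9 passed the test, 5 upward (*Ccnd3*, *Ccne1*, *Ccne2*, *Cdkn1a*, *Mycn*) and 3 downward (*Ccnd1*, *Ccnd2*, *Myc*), where 35.0% of all tested genes passed, 23.0% upward and 12.0% downward. *Ccne1*, *Ccne2* and *Mycn* were also past the second threshold, as were 6.22% of all genes. The median log2 fold change of the 9 genes was 0.41, against 0.08 over all tested genes. Leaving out Control replicate 2 left 5 of the 9.

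Each agent alone moved fewer of them. From Control to Hh-CM cells *Ccnd1*, *Ccnd3* and *Ccne2* rose and *Ccnd2* and *Myc* fell, 5 of 9 where 18.0% of all genes passed, 10.5% upward and 7.54% downward, and none was past the second threshold, as 2.76% of all genes were. This count was the least stable, at 0 without Control replicate 2, 1 without Hh-CM replicate 1, 2 without Hh-CM replicate 2, and 3 without Control replicate 1 or either Esrrb replicate. From Control to Esrrb cells *Ccne1* and *Mycn* rose and *Ccnd1* and *Cdkn1b* fell, 4 of 9 where 16.4% passed, 10.3% upward and 6.17% downward. *Mycn* alone was past the second threshold there, as were 1.48% of all genes. It was 2 of 9 without Control replicate 1 or without either Esrrb replicate. All 3 comparisons share the Control libraries.

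The other comparisons took a treated condition as the reference. From Hh-CM to Esrrb+Hh-CM cells *Ccne1*, *Ccne2*, *Cdkn1a* and *Mycn* rose and *Ccnd1* fell, 5 of 9 where 19.0% of all genes passed, 12.5% upward and 6.54% downward. From Esrrb to Esrrb+Hh-CM cells *Ccnd3*, *Ccne1*, *Ccne2*, *Cdkn1a* and *Cdkn1b* rose, 5 of 9 where 23.4% passed, 13.9% upward and 9.52% downward. *Mycn* in the first and *Ccne2* in the second were past the second threshold, as were 1.98% and 4.83% of all genes. The first count was 3 without Hh-CM replicate 2 or Esrrb+Hh-CM replicate 1, and the second was 3 without Esrrb replicate 2 or Esrrb+Hh-CM replicate 1.

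**Figure D2:**
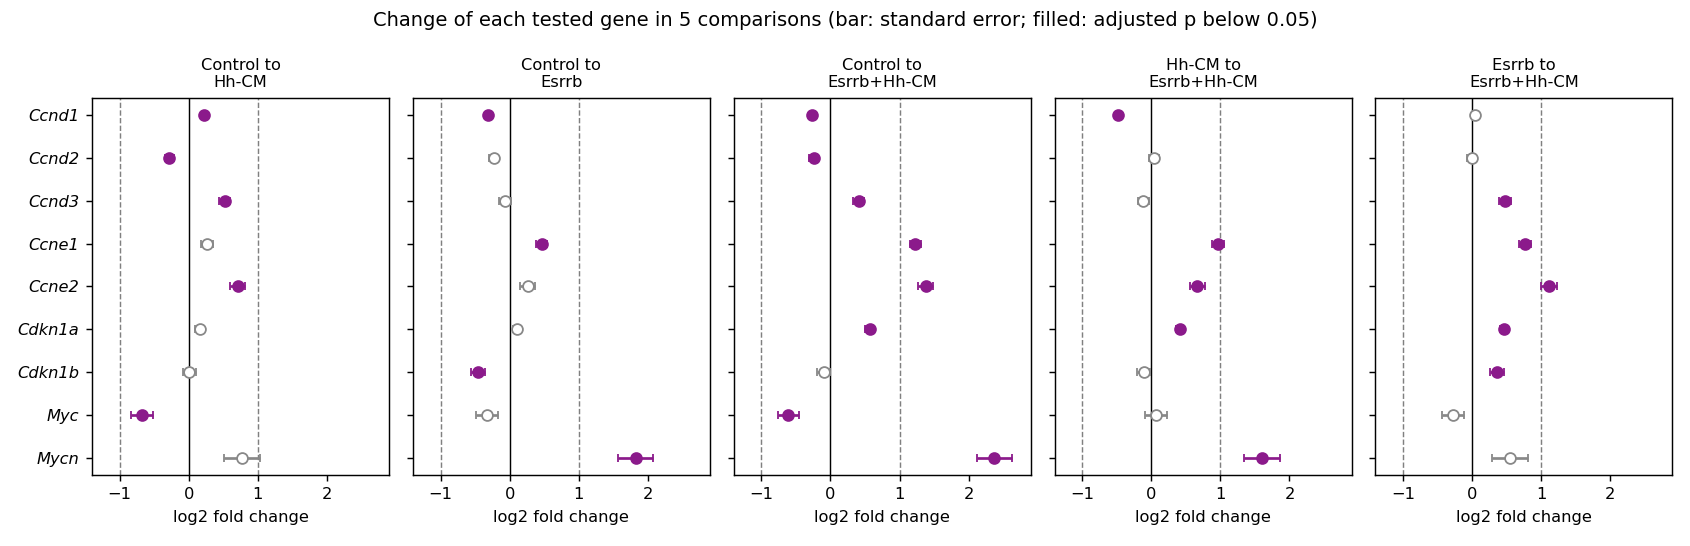
Log2 fold change (x axis) of the 9 tested genes (rows) in each of 5 comparisons, with the standard error as a bar, filled points for an adjusted p below 0.05 and dashed lines at a log2 fold change of 1 in size. *Mycn*, *Ccne2* and *Ccne1* lie beyond the dashed line from Control to Esrrb+Hh-CM cells, at 2.37, 1.38 and 1.23.

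*Ccnd3*, the most abundant of the D-type cyclins here, is annotated at chr17:47642000-47736632 on the plus strand of mm9. It stood at 87.8 and 86.2 FPKM in Control, 116 and 135 in Hh-CM, 85.9 and 80.1 in Esrrb, and 119 and 112 in Esrrb+Hh-CM cells. All 4 libraries with Hh-CM were above all 4 without it. *Ccnd3* rose by 0.52 ± 0.08 on the log2 scale (SE, limma adjusted p = 0.00934) with Hh-CM in the empty-vector line and by 0.48 ± 0.08 (limma adjusted p = 0.0097) in the line labelled Esrrb. Without Hh-CM replicate 2 the first change was 0.41 (limma adjusted p = 0.025), and without Esrrb replicate 1 the second was 0.53 (limma adjusted p = 0.0315). The first no longer passed without Control replicate 2 (limma adjusted p = 0.0525), and the second without Esrrb replicate 2 or Esrrb+Hh-CM replicate 1 (limma adjusted p = 0.0563 and 0.05). The change from Control to Esrrb+Hh-CM cells was 0.41 ± 0.08 (limma adjusted p = 0.0125) and was lost without either Control replicate or Esrrb+Hh-CM replicate 1 (limma adjusted p = 0.0508 to 0.0594). The locus shares 358 bases with that of *Bysl*, a ribosome assembly gene, which was listed at 0 in Hh-CM replicate 2 and reached at most 8.01 FPKM. The FPKM of *Ccnd3* lay above its own Cufflinks interval in 7 of 8 libraries.

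*Ccnd1* (chr7:152115836-152125774, minus strand), the D-type cyclin best known as a target of mitogen signalling, had 25.0 and 24.5 FPKM in Control, 29.6 and 28.2 in Hh-CM, 20.0 and 19.8 in Esrrb, and 20.9 and 20.2 in Esrrb+Hh-CM cells. The 4 libraries labelled with the Esrrb vector were below all others, and the Hh-CM libraries were above all others. It rose by 0.22 ± 0.04 (SE, log2, limma adjusted p = 0.021) with Hh-CM alone and fell by 0.31 ± 0.04 (limma adjusted p = 0.0089) from Control to Esrrb cells. The rise with Hh-CM alone was 0.26 without Hh-CM replicate 2. Within the line labelled Esrrb the Hh-CM difference was 0.04 ± 0.04 (limma adjusted p = 0.525), although its libraries did not overlap. From Hh-CM to Esrrb+Hh-CM cells *Ccnd1* fell by 0.49 ± 0.04 (limma adjusted p = 0.00216), and it kept passing without Hh-CM replicate 2 at -0.52 (limma adjusted p = 0.0117). Its rise with Hh-CM alone no longer passed when any 1 of the 4 libraries compared was left out, with limma adjusted p from 0.0521 to 0.112. The fall from Control to Esrrb cells was -0.32 without Esrrb replicate 1 (limma adjusted p = 0.0438) and no longer passed without Control replicate 1 or Esrrb replicate 2 (limma adjusted p = 0.0574 and 0.0502).

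*Ccnd2* (chr6:127075797-127101066, minus strand), a D-type cyclin with the same kinase partners, measured 48.28 and 49.98 FPKM in Control, 39.9 and 40.9 in Hh-CM, 41.4 and 42.2 in Esrrb, and 44.4 and 38.8 in Esrrb+Hh-CM cells. Both Control libraries were above the other 6. The fall was 0.28 ± 0.07 on the log2 scale with Hh-CM alone (SE, limma adjusted p = 0.0378) and 0.24 ± 0.07 from Control to Esrrb+Hh-CM cells (limma adjusted p = 0.0366). Both calls were lost without any 1 of the Control, Hh-CM or Esrrb libraries, and the second also without Esrrb+Hh-CM replicate 2, with limma adjusted p up to 0.154 and 0.144. Without Hh-CM replicate 2 the first was -0.30 (limma adjusted p = 0.118). From Control to Esrrb cells the difference was -0.23 ± 0.07 (limma adjusted p = 0.0684).

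Summed over the 3 genes, D-type cyclin RNA was 161 ± 0.317 FPKM in Control and 145 ± 3.73 in Esrrb cells, and with Hh-CM it was 195 ± 13.4 in the empty-vector line and 178 ± 9.21 in the line labelled Esrrb (SD, n = 2 libraries each). *Ccnd3* made up 54.1% ± 0.612 of the sum in Control and 57.3% ± 1.35 in Esrrb cells, against 64.3% ± 2.63 in Hh-CM and 65.0% ± 0.659 in Esrrb+Hh-CM cells. The share of *Ccnd3* was at least 62.5% in the libraries with Hh-CM and at most 58.3% in those without it.

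**Figure D3:**
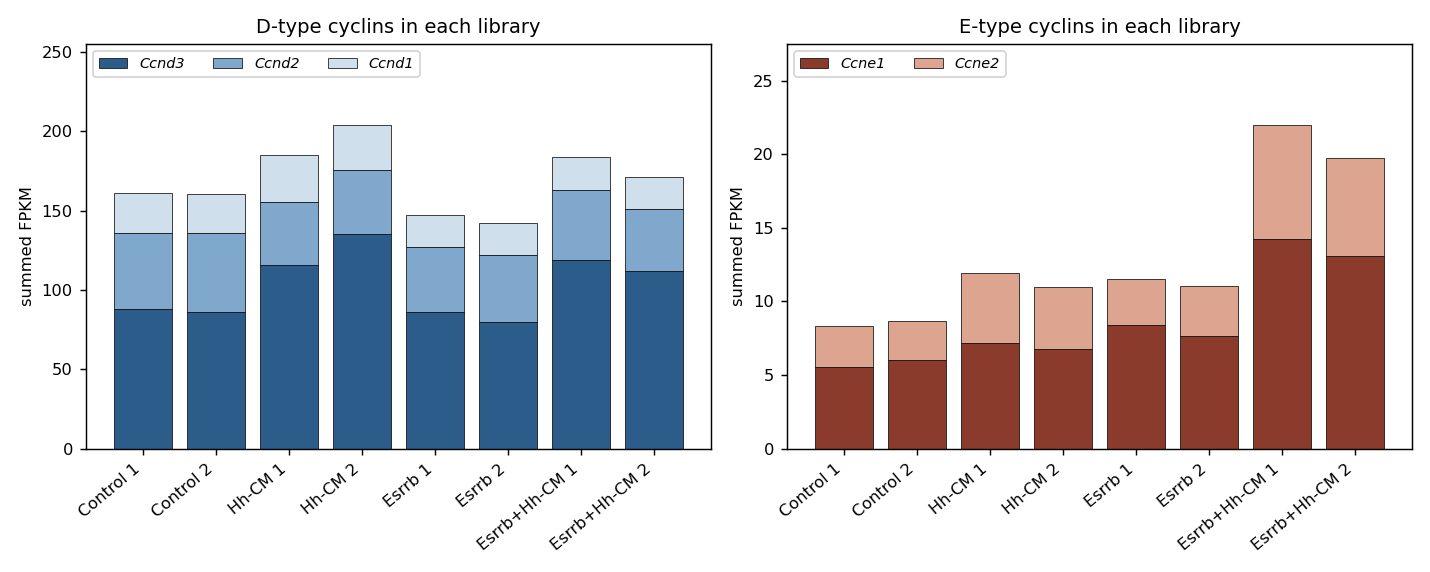
Summed FPKM (y axis, from 0) of the D-type cyclins (left) and the E-type cyclins (right) in each of the 8 libraries, stacked by gene. D-type sums run from 142 to 204 FPKM and are higher with Hh-CM, and E-type sums run from 8.33 FPKM in Control replicate 1 to 22.0 in Esrrb+Hh-CM replicate 1.

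The E-type cyclins rose most in the combined condition. *Ccne1* (chr7:38883003-38892553, minus strand) was at 5.52 and 6.04 FPKM in Control, 7.18 and 6.75 in Hh-CM, 8.37 and 7.66 in Esrrb, and 14.2 and 13.1 in Esrrb+Hh-CM cells. The 4 conditions did not overlap and were in this order. *Ccne1* rose by 0.46 ± 0.08 on the log2 scale from Control to Esrrb cells (SE, limma adjusted p = 0.0189) and by 1.23 ± 0.08 to Esrrb+Hh-CM cells (limma adjusted p = 0.000221). The difference with Hh-CM alone was 0.27 ± 0.08 (limma adjusted p = 0.0825). Without Esrrb replicate 1 the change from Control to Esrrb cells was 0.40 (limma adjusted p = 0.0871), whereas the rise of 0.76 ± 0.08 from Esrrb to Esrrb+Hh-CM cells (limma adjusted p = 0.00174) was 0.83 without that library (limma adjusted p = 0.00809). The first was also lost without Control replicate 1 (limma adjusted p = 0.0906). From Hh-CM to Esrrb+Hh-CM cells *Ccne1* rose by 0.96 ± 0.08 (limma adjusted p = 0.00196), and by 0.92 without Hh-CM replicate 2 (limma adjusted p = 0.0149).

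*Ccne2* (chr4:11118498-11131926, plus strand), a classical E2F target, had 2.81 and 2.61 FPKM in Control, 4.76 and 4.23 in Hh-CM, 3.17 and 3.37 in Esrrb, and 7.74 and 6.66 in Esrrb+Hh-CM cells. Its conditions did not overlap either, but Hh-CM cells stood above Esrrb cells. Hh-CM raised it by 0.71 ± 0.11 (SE, log2, limma adjusted p = 0.00933) in the empty-vector line and by 1.11 ± 0.11 (limma adjusted p = 0.00121) in the line labelled Esrrb. These were 0.79 without Hh-CM replicate 2 (limma adjusted p = 0.0293) and 1.07 without Esrrb replicate 1 (limma adjusted p = 0.0105). The change in the empty-vector line no longer passed without Control replicate 2 or Hh-CM replicate 1, at 0.66 and 0.63 (limma adjusted p = 0.0533 and 0.055). From Hh-CM to Esrrb+Hh-CM cells *Ccne2* rose by 0.67 ± 0.11 (limma adjusted p = 0.0129), which was lost without Hh-CM replicate 2 or Esrrb+Hh-CM replicate 1, at 0.58 and 0.56 (limma adjusted p = 0.0626 and 0.0505). The difference from Control to Esrrb cells was 0.26 ± 0.11 (limma adjusted p = 0.163). Its locus shares 5622 bases with that of *Ints8*, an Integrator complex gene at 13.3 to 18.5 FPKM, and counting by strand is not stated for these tables, so reads in the shared stretch could not be assigned from them.

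As a share of D-type and E-type cyclin RNA together, the E-type cyclins made up 5.01% ± 0.134 in Control and 5.58% ± 0.673 in Hh-CM cells of the empty-vector line, and 7.23% ± 0.0396 in Esrrb and 10.5% ± 0.219 in Esrrb+Hh-CM libraries (SD, n = 2 each). The Control and Hh-CM libraries of this share were 4.92% and 5.11% against 6.06% and 5.11%, nearly touching, and the libraries labelled with the Esrrb vector were above both.

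*Cdkn1a* (chr17:29227924-29237667, plus strand) encodes p21, which is also the best known target of p53. The values were 40.6 and 38.4 FPKM in Control, 42.0 and 46.1 in Hh-CM, 43.7 and 41.3 in Esrrb, and 57.6 and 59.7 in Esrrb+Hh-CM cells. Only the Esrrb+Hh-CM libraries stood clear of the other 6. *Cdkn1a* rose by 0.57 ± 0.06 (SE, log2, limma adjusted p = 0.00132) over Control, by 0.41 ± 0.06 (limma adjusted p = 0.00985) over Hh-CM and by 0.46 ± 0.06 (limma adjusted p = 0.00392) over Esrrb cells. The second was 0.48 without Hh-CM replicate 2 (limma adjusted p = 0.0212) and the third 0.50 without Esrrb replicate 1 (limma adjusted p = 0.016). The differences with Hh-CM alone (0.16 ± 0.06, limma adjusted p = 0.149) and from Control to Esrrb cells (0.11 ± 0.06, limma adjusted p = 0.299) did not pass.

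*Cdkn1b* (chr6:134870419-134875531, plus strand) encodes p27, which accumulates in resting cells. It was lowest in Esrrb cells, at 43.9 and 46.2 FPKM, below the 57.0 and 67.3 of Control, the 61.8 and 62.8 of Hh-CM and the 61.6 and 54.1 of Esrrb+Hh-CM cells. Control overlapped both other conditions, and both Hh-CM libraries were above both Esrrb+Hh-CM libraries by a narrow margin. *Cdkn1b* fell by 0.46 ± 0.10 on the log2 scale from Control to Esrrb cells (SE, limma adjusted p = 0.0295) and rose by 0.36 ± 0.10 from Esrrb to Esrrb+Hh-CM cells (limma adjusted p = 0.0451). Neither call held without Esrrb replicate 1, at -0.42 (limma adjusted p = 0.123) and 0.32 (limma adjusted p = 0.173), and both were also lost without Esrrb replicate 2 or either Hh-CM replicate (limma adjusted p = 0.0559 to 0.112). The first was lost without Control replicate 2 as well (limma adjusted p = 0.0955), and the second without Esrrb+Hh-CM replicate 1 (limma adjusted p = 0.161). A further 15 loci, at 15.7 to 39.5 FPKM, lay inside the *Cdkn1b* locus over the 8 libraries and were not added to it.

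*Cdkn1c*, which encodes p57 and is an imprinted gene (chr7:150644255-150646955, minus strand), had no more than 0.113 FPKM in any library. In whole fragments, read from the steps of its FPKM, this was 0 and 1 in Control, 1 and 1 in Hh-CM, 1 and 3 in Esrrb, and 1 and 2 in Esrrb+Hh-CM cells. A difference was not detectable at this depth. Together *Cdkn1a* and *Cdkn1b* came to 102 ± 5.71 FPKM in Control and 106 ± 3.65 in Hh-CM cells, to 87.5 ± 0.0963 in Esrrb cells and to 117 ± 3.84 in the combined condition (SD, n = 2 each). *Cdkn1a* made up 41.6% and 36.3% of this sum in Control and 49.9% and 47.2% in Esrrb libraries.

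*Myc* (chr15:61816946-61821929, plus strand), the family member expressed in most dividing cells, gave 31.0 and 41.5 FPKM in Control, 20.8 and 24.2 in Hh-CM, 28.02 and 28.98 in Esrrb, and 25.3 and 21.8 in Esrrb+Hh-CM cells. Both Control libraries were above the other 6, but they were also the farthest apart. *Myc* fell by 0.68 ± 0.16 with Hh-CM alone (SE, log2, limma adjusted p = 0.0347) and by 0.61 ± 0.16 from Control to Esrrb+Hh-CM cells (limma adjusted p = 0.0286). Without Control replicate 2, the higher one, these were -0.47 (limma adjusted p = 0.097) and -0.40 (limma adjusted p = 0.087). The first was also lost without either Hh-CM or either Esrrb replicate (limma adjusted p = 0.0627 to 0.15), at -0.78 without Hh-CM replicate 2 (limma adjusted p = 0.0737). The second was also lost without either Esrrb or either Esrrb+Hh-CM replicate (limma adjusted p = 0.0505 to 0.12). The differences from Control to Esrrb cells (-0.33 ± 0.16, limma adjusted p = 0.21) and from Esrrb to Esrrb+Hh-CM cells (-0.28 ± 0.16, limma adjusted p = 0.266) did not pass.

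*Mycn* (chr12:12942902-12948720, minus strand), best known in embryonic and neural progenitors, moved the other way and at a far lower level. It had 0.157 and 0.222 FPKM in Control, 0.376 and 0.407 in Hh-CM, 1.01 and 0.832 in Esrrb, and 1.49 and 1.30 in Esrrb+Hh-CM cells. The conditions did not overlap. *Mycn* entered the tests only through libraries labelled Esrrb or Esrrb+Hh-CM, so its rises to them are not independent of that choice. On the log2(FPKM + 0.1) scale, which understates changes of low genes, *Mycn* rose by 1.82 ± 0.26 from Control to Esrrb (SE, limma adjusted p = 0.0089), by 2.37 ± 0.26 to Esrrb+Hh-CM (limma adjusted p = 0.00127) and by 1.60 ± 0.26 from Hh-CM to Esrrb+Hh-CM cells (limma adjusted p = 0.0118). The last of these was 1.65 without Hh-CM replicate 2. The differences with Hh-CM were 0.77 ± 0.26 in the empty-vector line (limma adjusted p = 0.0979) and 0.55 ± 0.26 in the line labelled Esrrb (limma adjusted p = 0.19). Without Esrrb replicate 1 the change from Control to Esrrb cells was 1.70 (limma adjusted p = 0.0498). The change from Hh-CM to Esrrb+Hh-CM cells no longer passed without Hh-CM replicate 1, Hh-CM replicate 2 or Esrrb+Hh-CM replicate 1, at 1.51 to 1.65 (limma adjusted p = 0.0523 to 0.0669). The Cufflinks interval of *Mycn* spanned 28.2% to 69.2% of its value to either side, the widest of the 9 tested genes.

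*Mycn* stayed a small part of the Myc family RNA. Its share of the summed *Myc* and *Mycn* FPKM was lowest in Control cells at 0.518% ± 0.0213, then 1.72% ± 0.0845 with Hh-CM, 3.14% ± 0.49 in the Esrrb libraries and 5.60% ± 0.0606 in the combined condition (SD, n = 2 each). The sum was 36.4 ± 7.48, 22.9 ± 2.40, 29.4 ± 0.552 and 24.9 ± 2.63 FPKM in the same order.

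Promoter windows of 250 bases before to 50 after the start site (RefSeq, GRCm38.p6) were matched for 5 of the 10 genes, in 7 windows. They were searched on both strands for E2F motifs (TTTCGCGC, TTTGGCGC, TTTCCCGC, TTTGCCGC), the E-box bound by Myc proteins (CACGTG), the Gli motif GACCACCCA and the motif TCAAGGTCA of estrogen related receptors. Of all 32851 promoters, 2.26% hold any of the E2F motifs, 7.15% the E-box, 0.253% the Gli motif and 0.423% the last. Among the windows of *Ccnd3*, *Ccne1*, *Cdkn1a*, *Cdkn1b* and *Mycn*, only that of *Mycn* held a match. It and that of *Ccne1* are shown as those of the genes with the largest changes that have an entry. The *Mycn* window lies at chr12:12941787-12942086 and the *Ccne1* window at chr7:38107441-38107740, both on the minus strand, and capitals mark E2F motif matches.
Mycn: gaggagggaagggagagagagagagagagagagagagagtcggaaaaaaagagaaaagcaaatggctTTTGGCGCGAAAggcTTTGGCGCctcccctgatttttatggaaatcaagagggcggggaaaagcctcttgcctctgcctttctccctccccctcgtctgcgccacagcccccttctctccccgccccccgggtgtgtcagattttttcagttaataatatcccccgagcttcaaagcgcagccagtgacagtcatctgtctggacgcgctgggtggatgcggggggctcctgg
Ccne1: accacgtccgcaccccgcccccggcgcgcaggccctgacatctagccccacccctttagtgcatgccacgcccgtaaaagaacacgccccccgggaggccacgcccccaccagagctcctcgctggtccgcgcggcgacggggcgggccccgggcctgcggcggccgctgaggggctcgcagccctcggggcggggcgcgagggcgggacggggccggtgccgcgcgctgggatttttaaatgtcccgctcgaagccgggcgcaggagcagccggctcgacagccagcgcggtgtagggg
TTTGGCGC stood on the plus strand of the *Mycn* window at -183 to -176 and again at -168 to -161 from the start, and TTTCGCGC on the other strand at -179 to -172, overlapping the first. The match is a description of these letters. The *Ccne1* window held 41 CpG pairs at 76.0% GC, against 14 at 56.7% GC in *Mycn* and a median GC of 52.7% over all promoters.

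The question of whether Hh-CM acted differently in the 2 vector lines was tested as the interaction, the Hh-CM change in the line labelled Esrrb minus that in the empty-vector line. By limma 0 of the 9 genes passed, where 1.35% of all genes did. An unadjusted p below 0.05 was reached by 6 of the 9, where 18.0% of all genes reached it. The estimate was 0.50 ± 0.12 on the log2 scale for *Ccne1* (SE, limma adjusted p = 0.11), 0.31 ± 0.09 for *Cdkn1a* (limma adjusted p = 0.156), 0.40 ± 0.16 for *Ccne2* (limma adjusted p = 0.256) and -0.18 ± 0.06 for *Ccnd1* (limma adjusted p = 0.216). That *Ccne1*, *Cdkn1a* and *Cdkn1b* passed with Hh-CM only in the line labelled Esrrb, and *Ccnd1*, *Ccnd2* and *Myc* only in the empty-vector line, is therefore not shown to be a difference between the lines.

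**Figure D4:**
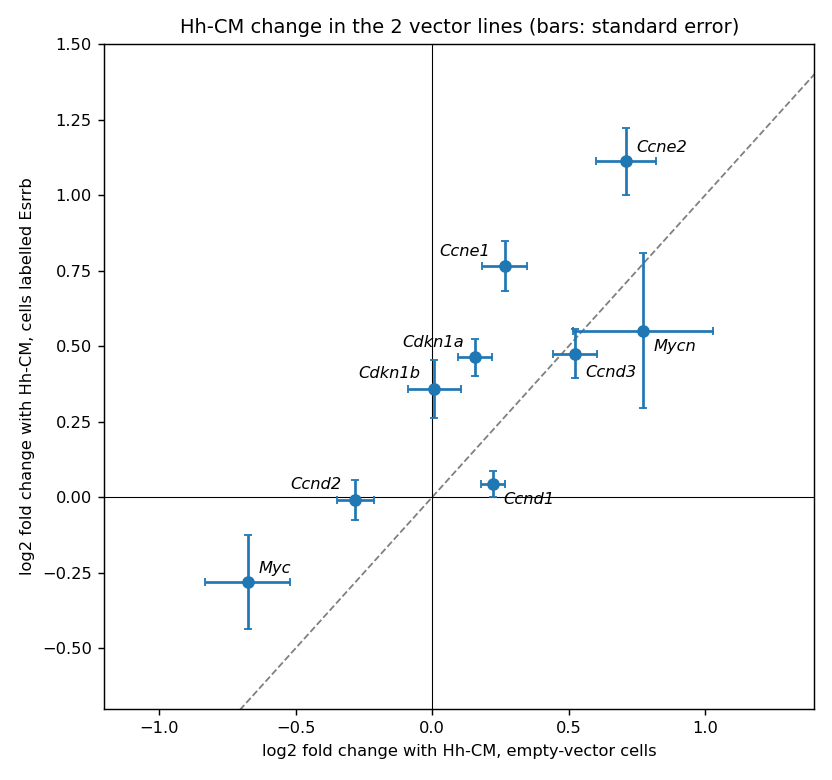
Log2 fold change with Hh-CM in the empty-vector line (x axis) and in the line labelled Esrrb (y axis) for the 9 tested genes, with standard errors as bars and a dashed line of equal change. *Ccne1*, *Ccne2*, *Myc*, *Cdkn1b*, *Cdkn1a* and *Ccnd2* lie above the line, by 0.50, 0.40, 0.40, 0.35, 0.31 and 0.27, and *Mycn*, *Ccnd1* and *Ccnd3* below it, by -0.22, -0.18 and -0.05, none of which passed the test.

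Other genes of the pathway were taken as lists by name, chosen with earlier results of these data known. The counts below are therefore not independent of those results. Over all tested genes, 10.5% rose with Hh-CM alone, 10.3% from Control to Esrrb, 23.0% from Control to Esrrb+Hh-CM, 12.5% from Hh-CM to Esrrb+Hh-CM and 13.9% from Esrrb to Esrrb+Hh-CM cells, and the counts below are to be read against these shares. Of 15 E2F target genes, 12 rose with Hh-CM alone, 3 from Control to Esrrb, 14 from Control to Esrrb+Hh-CM, 13 from Hh-CM to Esrrb+Hh-CM and 14 from Esrrb to Esrrb+Hh-CM cells. The 12 with Hh-CM alone were 6 without Hh-CM replicate 2 and 8 without Esrrb replicate 1, and the 3 from Control to Esrrb were 2 without either library. In the other comparisons 11 to 14 rose without either of them. The median log2 fold change from Control to Esrrb+Hh-CM cells was 1.15, against 0.08 over all genes. *Tk1*, thymidine kinase, changed by 2.07, *Ccna2*, the cyclin of S phase, by 1.94 and *Rrm2*, a ribonucleotide reductase subunit, by 1.54. *Ccna2* had 13.1 and 13.2 FPKM in Control, 26.0 and 26.4 in Hh-CM, 17.1 and 16.9 in Esrrb, and 52.8 and 48.9 in Esrrb+Hh-CM cells, the same order of conditions as *Ccne2*. All 9 mitotic genes tested rose with Hh-CM in both lines and from Control to Esrrb+Hh-CM cells, the last with a median of 1.96. Without Hh-CM replicate 2 the count with Hh-CM alone was 8, and the other counts were 9 without either that library or Esrrb replicate 1. *Top2a*, topoisomerase II alpha, changed by 2.75 and *Mki67*, the Ki-67 antigen, by 2.46. All 9 mitotic genes also rose from Hh-CM to Esrrb+Hh-CM cells. From Control to Esrrb cells, without Hh-CM, 5 of the 9 rose, with a median of 0.315, and this count was not stable without Esrrb replicate 1.

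Of 7 tested E2F factors and DP partners 2 rose with Hh-CM alone, 3 from Control to Esrrb and 5 from Control to Esrrb+Hh-CM cells, and none fell. The first count was 0 without Hh-CM replicate 2, the second 0 without Esrrb replicate 1, and the third 5 without either. *E2f3* and *E2f4* did not pass in the combined condition, at 0.07 and 0.04. *E2f7* and *E2f8*, repressors that are themselves E2F targets, rose by 2.10 and 1.95 to Esrrb+Hh-CM cells and *E2f1* by 0.65. *E2f7* was below the limit in Control, at 0.675 and 0.727 FPKM, and met it only through the other conditions. Its rises from Control are therefore not independent of how it came to be tested. In the combined condition 23.0% of all genes rose and 12.0% fell. Among 9 G1 kinases and pocket proteins 5 rose and 1 fell in that comparison, with *Rbl1* (p107) at 1.03, *Cdk2*, the partner of cyclin E, at 0.94, *Cdk6* at 0.49 and *Mnat1*, a subunit of the CDK-activating kinase, at -0.52. *Skp2*, which targets p27 for degradation, rose by 0.97 and *Cdc25a*, the phosphatase that activates CDK2, by 0.54, 2 of 7 genes of G1 turnover and activation. Of the 4 INK4 inhibitors, *Cdkn2a* and *Cdkn2b* were listed at 0 in all 8 libraries. *Cdkn2c* (p18), at 50.3 to 75.9 FPKM as group means, passed in none of the 5 comparisons (0.11 from Control to Esrrb+Hh-CM cells, limma adjusted p = 0.633). *Cdkn2d* (p19) rose by 1.06, from 3.28 and 3.12 FPKM in Control to 7.38 and 6.19 in Esrrb+Hh-CM cells.

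Genes around *Myc* and p53 passed in both directions. Of all tested genes, 23.0% rose and 12.0% fell from Control to Esrrb+Hh-CM cells. In the Max network, 1 of 8 tested genes rose (*Mga*, 0.52) and 1 fell (*Mxi1*, -0.26) from Control to Esrrb+Hh-CM cells. Both counts were near or below those shares. Of 9 Myc target genes 2 fell with Hh-CM alone, where 7.54% of all genes fell. From Control to Esrrb cells 3 fell, where 6.17% of all genes did, and to Esrrb+Hh-CM cells 1 rose and 3 fell. *Odc1*, ornithine decarboxylase, fell by 0.76 from Control to Esrrb cells, from 88.4 and 92.6 to 55.5 and 51.5 FPKM. *Npm1*, a nucleolar chaperone, fell by 0.48 to Esrrb+Hh-CM cells, while *Nop56*, a box C/D snoRNP protein, rose by 0.37. Of 14 p53 target genes other than *Cdkn1a*, 5 rose and 3 fell from Control to Esrrb+Hh-CM cells, with *Mdm2* at 0.26, *Plk2* at -0.80 and *Trp53inp1* at -0.51.

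Early response and growth-arrest genes were mixed as well. With Hh-CM 7.54% of all genes fell in the empty-vector line and 9.52% in the line labelled Esrrb. Of 8 immediate early genes 2 fell with Hh-CM alone and 3 fell with Hh-CM in the line labelled Esrrb. In that line *Atf3* changed by -1.67, *Fos* by -1.19 and *Jun* by -0.81. *Fos* met the limit of 1 FPKM only through the Esrrb libraries, at 1.05 in each. Its fall from them is therefore not independent of how it came to be tested. Of 5 growth-arrest genes 2 rose and 1 fell from Control to Esrrb+Hh-CM cells, where 23.0% of all genes rose and 12.0% fell. *Gas1*, a Hedgehog co-receptor first found in arrested fibroblasts, fell by 1.60, from 281 and 273 FPKM to 96.1 and 87.0, and *Gas6*, a secreted TAM receptor ligand, rose by 1.49.

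**Figure D5:**
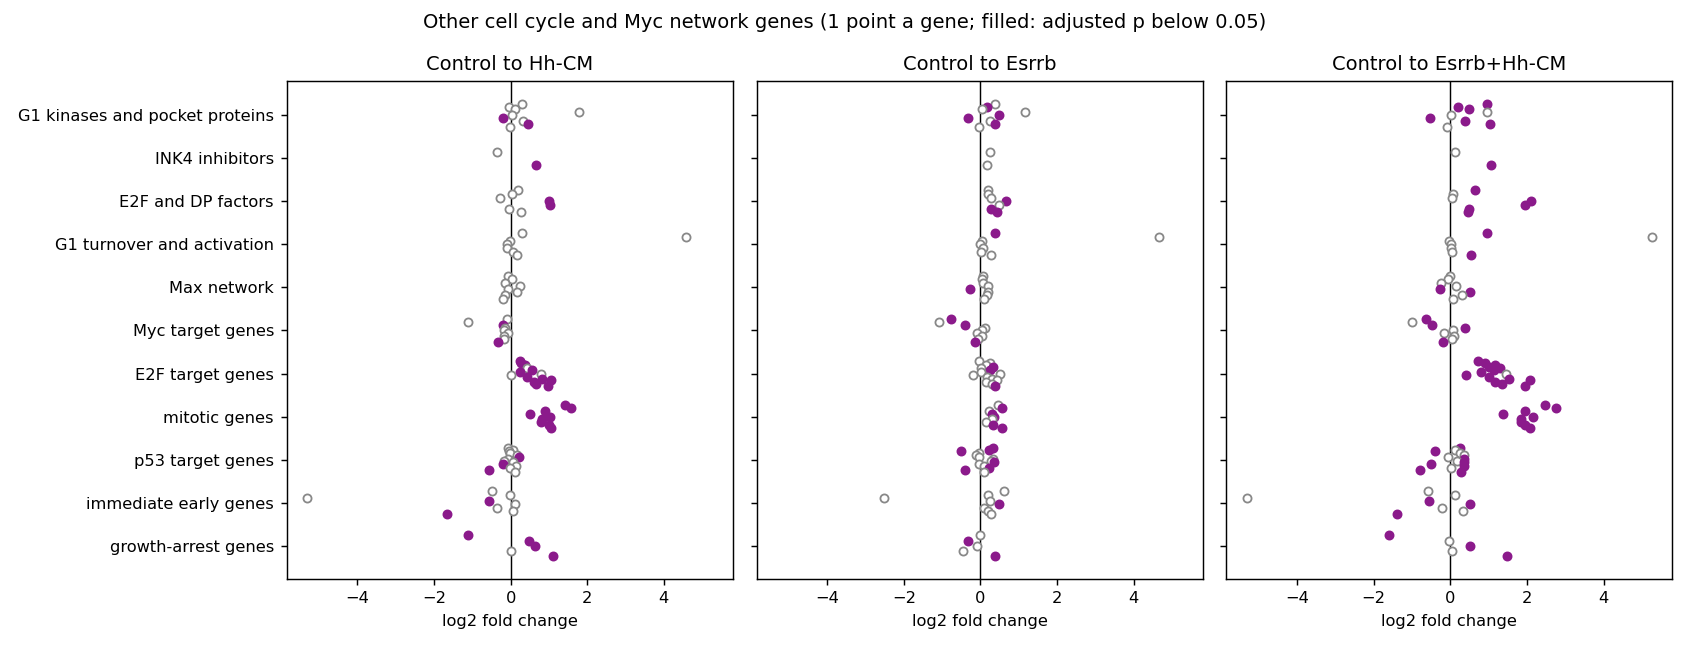
Log2 fold change (x axis) of the genes of 11 lists (rows, 1 point a gene) from Control to each of the other conditions, filled where the adjusted p was below 0.05. E2F target and mitotic genes lie to the right with Hh-CM and farther to the right in Esrrb+Hh-CM cells, and the open points farthest from 0 are *Cks1b* and *Fosl1*, listed at 0 in 1 Control library and in 5 treated libraries.

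For the 2 genes with the widest range of group means, the genes with the most similar profile were sought by the root mean square difference of log2(FPKM + 0.1), each gene centred on its mean over the 8 libraries. For *Ccne2* these were *Wdhd1* (0.0624), *Plk4* (0.0789) and *Mad2l1* (0.0846). For *Mycn* they were *Ripk3* (0.204), *Esx1* (0.245) and *3632451O06Rik* (0.27), all at low levels like *Mycn*, between 0.110 and 1.56 FPKM as group means. Only tested genes were searched, so a gene this low in Control had to reach 1 FPKM in at least 2 other libraries. The likeness to *Mycn* is thus partly set by that limit.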

How the data were processed

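RNA-Seq data of 8 NIH3T3 libraries were used, grouped and numbered by their labels. The deposited values are FPKM with Cufflinks intervals. The authors filtered reads (FASTX), aligned them (Bowtie2, TopHat2, mm9) and ran Cufflinks sample by sample. The libraries were made with a stranded kit, and the strand setting in counting is not given in the sources used here. No counts are in these files, so depth is relative, from the steps of low FPKM.

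Each annotated gene (GENCODE vM1, same build) took the locus overlapping it best, by at least 0.5 of the joint length. On log2(FPKM + 0.1), limma (version 3.58.1, R version 4.3.3) fitted the 4 conditions over all 8 samples, with a variance trend and Benjamini-Hochberg adjustment. It replaced the study's Cuffdiff, which needs reads. On simulated data of the Control to Esrrb+Hh-CM comparison the fit recovered 88.5% of 200 genes changed by 1.5 (log2) among 10277. It recovered 177 of them and called 16 unchanged genes falsely. Most changes of the cyclins, inhibitors and Myc genes were smaller, and more genes passed in the data. The recovery therefore does not give the power to find changes of their size. An exact permutation test of 2 against 2 cannot go below p = 0.33. Alternatives were 10 settings and each sample left out.

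The genes and lists were chosen with earlier results of these data known. Named from each list are up to 4 genes with the largest change among those that passed in any comparison, along with *E2f3*, *E2f4*, *Cdkn2c*, *Mdm2*, *Cks1b*, *Fosl1* and *Bysl*, *Ints8*, chosen after their values were seen. Some genes of the lists are not reported here by name. Tables and plots were made with pandas 2.3.3, numpy 2.4.6 and matplotlib 3.10.9 under Python 3.11.15.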

Additional observations from a re-analysis of the deposited data

Results flagged for a closer look

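The Hh-CM change differed between the vector lines, by limma's interaction test, in 6 genes of the lists and in none of the cyclins, inhibitors or Myc genes. These were 4 of 9 mitotic genes, 1 of 15 E2F target genes and 1 of 5 growth-arrest genes, with none in the other lists. Over all 10277 tested genes 139 passed, or 1.35%, and 55 passed when the replicate number was added to the fit. The Hh-CM change was larger in the line labelled Esrrb by 0.59 on the log2 scale for *Ccna2* (limma adjusted p = 0.0247), 0.61 for *Top2a* (limma adjusted p = 0.0149), 0.83 for *Ccnb1* (limma adjusted p = 0.0417), 0.55 for *Cdk1* (limma adjusted p = 0.0258) and 0.77 for *Plk1* (limma adjusted p = 0.032). For *Gas1* the difference was -0.48 (limma adjusted p = 0.0474), a deeper fall in that line. Without Esrrb replicate 1 none of the 6 passed (limma adjusted p = 0.0567 to 0.132), and without Hh-CM replicate 2 only *Plk1* did (limma adjusted p = 0.0479, the others 0.0519 to 0.133), with differences of 0.53 to 0.89 for the 5 cell cycle genes and -0.48 to -0.47 for *Gas1* in both settings.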

How the results depend on the processing

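Of the single-gene values under the alternatives, 861 kept direction and side of the threshold, 77 no longer passed, 6 newly passed and 13 changed sign. From Control to Hh-CM cells the count of genes that passed was 3 in place of 5 without an FPKM limit, with the replicate block and with only the compared groups in the fit. The count past both thresholds went from 1 to 0 with a pseudocount of 1 for Control to Esrrb, Hh-CM to Esrrb+Hh-CM and Esrrb to Esrrb+Hh-CM, and also with a limit of 1 FPKM in all samples, which removes *Mycn*, for the first 2. When single samples were left out, the counts that passed ranged from 0 to 5, 2 to 5, 5 to 7, 3 to 5 and 3 to 5 in the order Control to Hh-CM, Control to Esrrb, Control to Esrrb+Hh-CM, Hh-CM to Esrrb+Hh-CM and Esrrb to Esrrb+Hh-CM, and those past both thresholds from 0 to 2 for Hh-CM to Esrrb+Hh-CM.

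The 13 changes of sign were of values that had not passed. With rescaled FPKM, *Cdkn1b* was -0.0272 from Control to Hh-CM and *Ccnd2* was -0.0087 from Hh-CM to Esrrb+Hh-CM, and with a pseudocount of 1 the interaction of *Mycn* was 0.0907. When single samples were left out, *Cdkn1b* ranged from -0.111 to 0.128 for Control to Hh-CM and from -0.220 to 0.0190 for Control to Esrrb+Hh-CM. *Ccnd2* ranged from -0.0573 to 0.135 and *Myc* from -0.0423 to 0.174 for Hh-CM to Esrrb+Hh-CM. For Esrrb to Esrrb+Hh-CM *Ccnd2* ranged from -0.106 to 0.0869, and the interaction of *Ccnd3* from -0.159 to 0.0646. The cause was not tested.

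Replicate numbers did not pair the samples: deviations of same-numbered samples correlated at -0.0389 to 0.0715. With the replicate block *Ccnd2* (limma adjusted p = 0.0691) and *Myc* (0.0518) were lost from Control to Hh-CM, *Cdkn1b* from Control to Esrrb (0.0566), *Ccnd2* from Control to Esrrb+Hh-CM (0.062) and *Cdkn1b* from Esrrb to Esrrb+Hh-CM (0.0755), and the block ended no other call of the 9 genes. Depth limits *Cdkn1c* and *Mycn*. The list counts without Esrrb replicate 1 or Hh-CM replicate 2 were added after seeing the data, and among those of E2F target and mitotic genes they moved the first from Control to Hh-CM from 12 to 6 without Hh-CM replicate 2 and the second from Control to Esrrb from 5 to 2 without Esrrb replicate 1, and no other by over 1.5 times.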
